A study of Mus musculus with 32 samples.

Results

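The genes examined are 40 enzymes and binding proteins of protein acetylation, chosen by symbol from general knowledge of their roles. Earlier results of these data were known when they were chosen. They comprise 14 acetyltransferases (writers), 4 class I deacetylases, 7 class II and class IV deacetylases and 7 sirtuins (together the erasers), and 8 bromodomain proteins (readers). All 40 were in both deposited tables, which list 12791 genes for cells in 10 mM glucose and 12053 genes for cells in 1 mM glucose.

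Lysine acetyltransferases move the acetyl group of acetyl-CoA onto histones and other proteins, and ATP-citrate lyase (ACLY) is a main source of that acetyl-CoA outside mitochondria. Class I, II and IV deacetylases hold a zinc ion and remove acetyl groups by hydrolysis, whereas sirtuins spend NAD to do so. Bromodomains are pockets that bind acetylated lysine and bring remodelling or transcription complexes to acetylated chromatin.

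All cells were Acly knockout mouse embryonic fibroblasts, so the controls carry the knockout too. The KO group carried mCherry alone, and the WT group carried human ACLY fused to mCherry. The Cyto group carried the fusion with a nuclear export sequence, and the Nuc group carried it with nuclear import sequences. Each was kept for 24 h in DMEM with 10% CS (as the labels abbreviate the serum) and 10 mM or 1 mM glucose, and RNA-seq gave 4 libraries per construct and medium. The Cyto library numbered 3 in 10 mM glucose is not analysed here, so that group has n = 3. The position of ACLY within the cells is not part of these data. Neither whether libraries of a group were separate cultures nor whether a construct was introduced more than once is given, so p-values measure only the spread between these libraries. Each medium was sequenced as its own batch and normalized on its own. Levels are therefore compared only between constructs within a medium, and media only through differences of fold changes.

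Promoters are shown for 4 genes called in the same direction against KO in both media (Hat1 in all 3 ACLY groups, Hdac5 in WT and Cyto, Hdac6 and Brd7 in WT and Nuc), to give the sequence context of their start sites. Each line holds the 150 bases before the start of the gene, 5′ to 3′ on the gene's strand, from RefSeq on GRCm38.p6, while the deposited tables were made on GRCm39 per the submitters' processing notes. Capitals mark CCAAT or its reverse complement ATTGG, the GC box GGGCGG or its reverse complement CCGCCC, and the E2F motif TTTCCCGC.
Hat1, chr2:71389110-71389259, plus strand: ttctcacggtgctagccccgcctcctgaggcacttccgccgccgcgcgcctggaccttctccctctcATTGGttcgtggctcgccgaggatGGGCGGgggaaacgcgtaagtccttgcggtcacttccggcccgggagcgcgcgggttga
Hdac5, chr11:102230173-102230322, minus strand: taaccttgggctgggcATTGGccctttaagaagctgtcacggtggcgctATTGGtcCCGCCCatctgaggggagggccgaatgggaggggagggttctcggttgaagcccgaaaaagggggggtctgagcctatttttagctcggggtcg
Hdac6, chrX:7947890-7948039, minus strand: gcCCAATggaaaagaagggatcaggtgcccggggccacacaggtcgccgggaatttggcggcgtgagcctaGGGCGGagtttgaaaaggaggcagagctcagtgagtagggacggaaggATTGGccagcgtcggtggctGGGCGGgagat
Brd7, chr8:88362173-88362322, minus strand: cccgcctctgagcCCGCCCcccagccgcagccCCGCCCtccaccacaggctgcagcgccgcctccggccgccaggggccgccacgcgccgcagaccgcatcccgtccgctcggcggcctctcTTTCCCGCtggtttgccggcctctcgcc

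Promoter sequences were at hand for 34 of the 40 genes, and motifs were searched on both strands in the 250 bases before the start. GGGCGG was present in 28 (82.4%), against 35.4% of 27025 gene promoters. CCAAT was present in 13 (38.2%), against 37.5%. TTTCCCGC or TTTGGCGC, written for E2F factors, was present in Brd7 and Sirt4 (5.9%), against 1.5%. CACGTG was present in 3 (8.8%), against 6.9%, TCACCCCAC in Brd1 alone (2.9%), against 0.6%, and TGACGTCA in 0, against 1.8%. The 27025 promoters include those of genes outside the deposited tables, whereas all 40 genes were in both. A background of only the genes in the tables was not counted, so these contrasts are not read as particular to acetylation genes. The motifs are letter matches and were not tied to binding.

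Acly, the targeted gene, checked the labels. The ACLY groups carried human ACLY, while reads were processed on a mouse build. Acly values are therefore reads assigned to the mouse gene and not a measured level of the construct. Its mean level was 5.87 ± 0.21 (SD, n = 4) in KO in 10 mM glucose, and WT exceeded it 20.3-fold, Cyto 14.6-fold and Nuc 9.49-fold. The folds in 1 mM glucose were 37.3, 35.7 and 12.3. Between the ACLY groups, Cyto exceeded Nuc 1.54-fold in 10 mM and 2.9-fold in 1 mM glucose. WT exceeded Nuc 2.13-fold and 3.03-fold, and none of these groups overlapped Nuc. WT exceeded Cyto 1.39-fold in 10 mM glucose and overlapped it in 1 mM glucose. The part of these Acly differences in the results between constructs was not tested. Levels are the deposited log2 values, a normalized scale on which 1 unit is a doubling. The sequencing depth behind them is unknown, so no counting interval is given. All 8 fibroblast markers were present, and their summed linear level differed between groups. In 10 mM glucose the sum was 25815 to 26827 in KO, 44305 to 45736 in WT, 36687 to 40200 in Cyto and 49403 to 52764 in Nuc. In 1 mM glucose it was 36499 to 43129 in KO, 58739 to 67661 in WT, 34438 to 37819 in Cyto and 54152 to 58999.8 in Nuc. Against KO, 6, 5 and 5 of the 8 were called higher and 0, 0 and 1 lower in WT, Cyto and then Nuc in 10 mM glucose. In 1 mM glucose 4, 1 and 3 were higher and 2, 5 and 3 lower. Of all genes, 40.8%, 38.5% and 45.3% were called in these comparisons in 10 mM and 58.2%, 64.7% and 60% in 1 mM glucose. Of 4 smooth muscle markers 3 were listed in 10 mM glucose and 2 in 1 mM glucose, with Cnn1 in neither table. Their sums in 10 mM glucose were 1567 to 1818 in KO, 2620 to 2921 in WT, 1729.8 to 1817 in Cyto and 2495 to 2979 in Nuc, and in 1 mM glucose 1269.56 to 1324, 1506 to 2109, 917 to 1268 and 2004 to 2225. The part of these markers in the results for the 40 genes was not tested. Ptprc, Adgre1, Cdh5, Kdr and all 4 epithelial markers were not in the tables. The listed leukocyte genes summed to at most 9.26, endothelial genes to 5.68, neural genes to 71.4 and adipocyte genes to 21.1. No member was at the lowest value of its table.

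Within each medium, limma was fitted to all genes and a gene was called where its p, adjusted over the whole table by the Benjamini-Hochberg method, was under 0.05. In 10 mM glucose 13 of the 40 genes were called between WT and KO, 8 higher and 5 lower in WT, against 40.8% of all genes. Cyto against KO gave 15 (8 higher, 7 lower; 38.5% of all genes), and Nuc against KO gave 12 (7 higher, 5 lower; 45.3%). Nuc against Cyto gave 10 (4 higher, 6 lower; 31%). Cyto against WT gave 7 (31.5%) and Nuc against WT gave 7 (28.8%). Acetylation genes were thus called at 17.5% to 37.5%, below the share of all genes in each of these 6 comparisons. The gap was smallest in Cyto against KO (37.5% and 38.5%). The gaps were not tested and are not read as particular to acetylation genes.

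More genes were called in the 1 mM table, among the 40 and over all genes alike. WT against KO gave 23 (11 higher, 12 lower; 58.2% of all genes), Cyto against KO 21 (13 higher, 8 lower; 64.7%) and Nuc against KO 20 (10 higher, 10 lower; 60%). Nuc against Cyto gave 13 (5 higher, 8 lower; 41%), Cyto against WT 18 (53.2%) and Nuc against WT 11 (39.1%). The median log2 difference of the 40 genes lay between -0.13 and 0.10 in all 12 comparisons. Kat6b, Crebbp and Sirt4 were called in none of the comparisons, and the other 37 were called in at least 1.

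**Figure D1:**
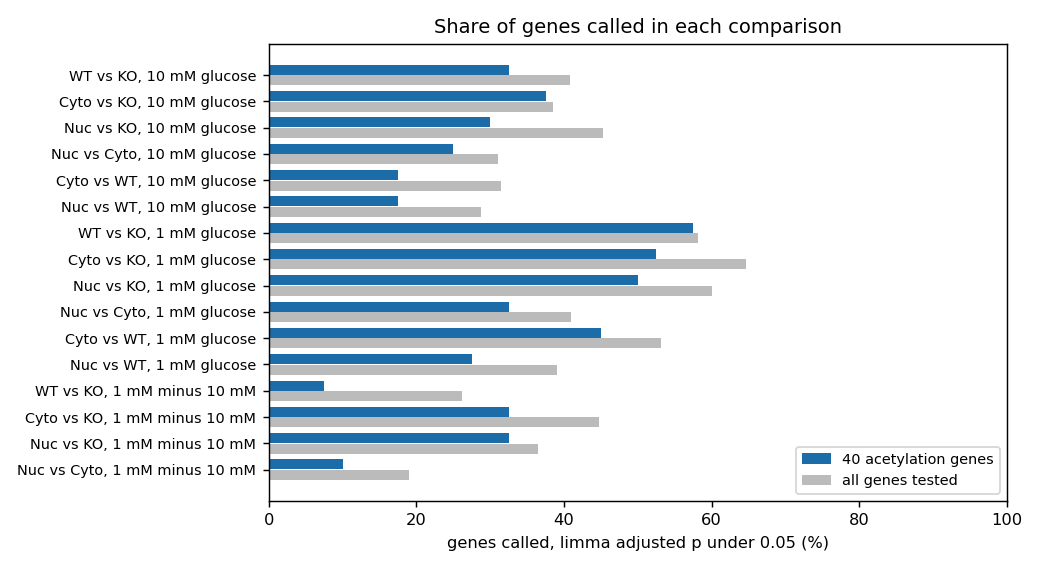
Share of genes called (x axis, %, limma adjusted p under 0.05) for the 40 acetylation genes (blue) and for all genes tested (grey), in 12 comparisons within a medium and 4 between media (y axis). The blue bar is shorter than the grey bar in every comparison, from 7.5% against 26.2% to 57.5% against 58.2%. The differences in length were not tested.

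**Figure D2:**
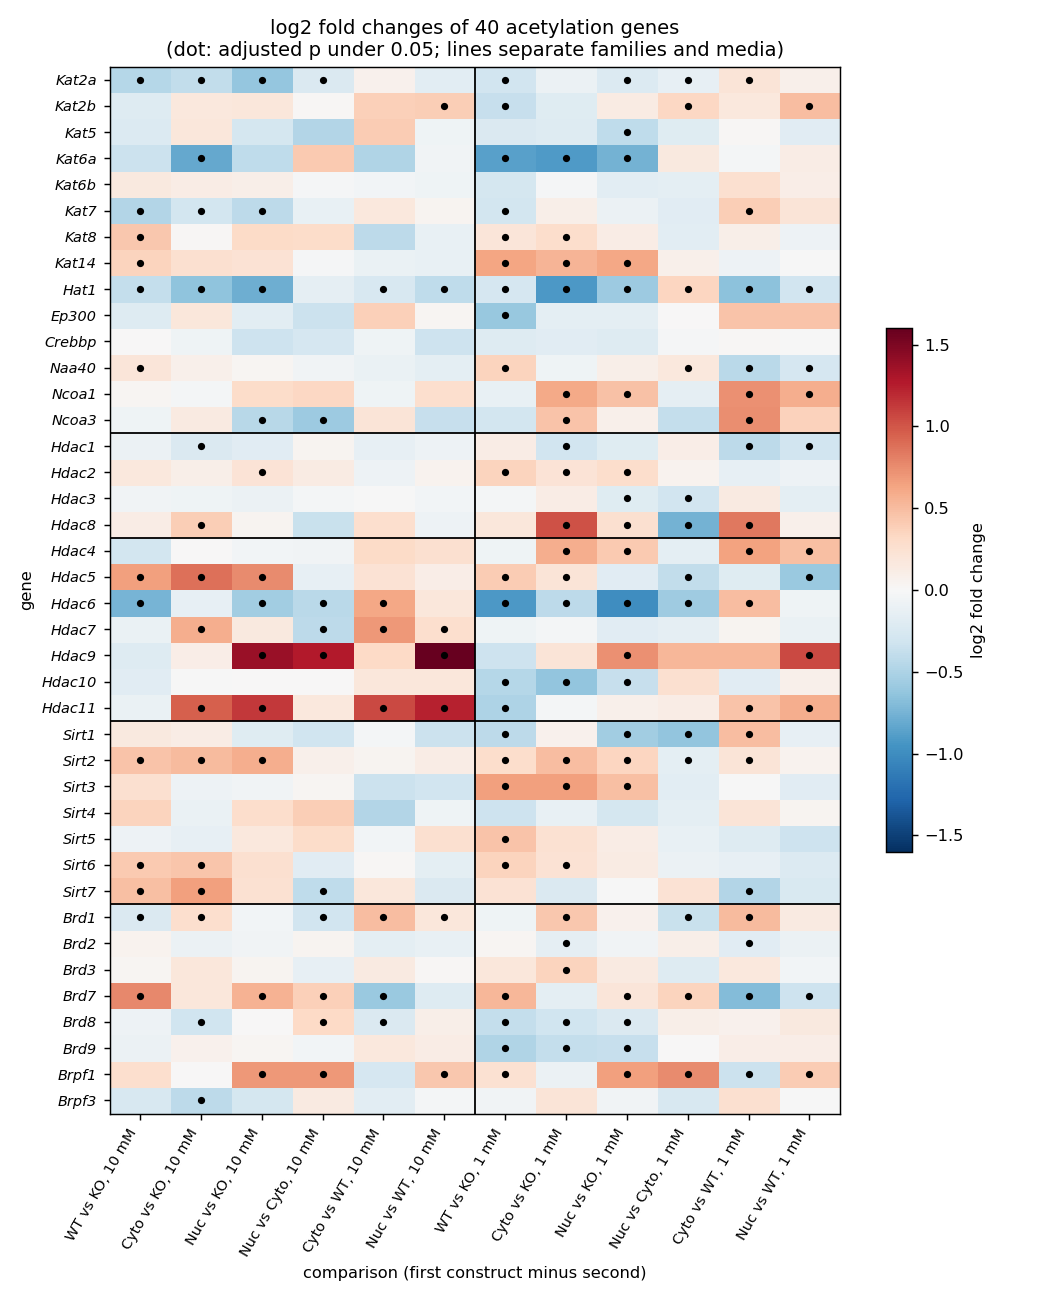
Heat map of the log2 difference (colour) of each of the 40 genes (rows, in the order writers, class I, class II and IV, sirtuins, readers) in the 12 comparisons within a medium (columns). Dots mark genes called, and the row of Hat1 carries a dot in each of the 6 columns of differences from KO.

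Of 14 writers, in 10 mM glucose 3 were higher and 3 lower in WT, 0 higher and 4 lower in Cyto, and 0 higher and 4 lower in Nuc, all against KO. Of all genes 40.8%, 38.5% and 45.3% were called in these comparisons, and 50.4%, 50.8% and 50% of those called were higher. The 1 mM counts were 3 higher and 6 lower in WT, 4 higher and 2 lower in Cyto, and 2 higher and 4 lower in Nuc, where 58.2%, 64.7% and 60% of all genes were called and 51%, 49% and 50.9% of those called were higher. Hat1 was called lower in all 6 comparisons with KO and Kat2a in 5 of them. Among writers Kat14 gave the largest increase against KO (0.63 in WT in 1 mM glucose).

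Hat1, which acetylates newly made histone H4 before its deposition, was lower in every ACLY group than in KO. The 10 mM libraries held 6.37, 6.40, 6.45 and 6.43 in KO, 5.98, 6.08, 5.93 and 6.14 in WT, 5.67, 5.79 and 5.85 in Cyto, and 5.66, 5.51, 5.65 and 5.68 in Nuc. All 11 libraries with ACLY lay below all 4 KO libraries. The log2 differences from KO were -0.38 ± 0.07 (SE; adjusted p = 0.000279) in WT, -0.64 ± 0.07 (adjusted p = 3.98e-06) in Cyto and -0.79 ± 0.07 (adjusted p = 1.03e-07) in Nuc. The 1 mM libraries held 5.21, 5.28, 5.27 and 5.39 in KO, 4.76, 5.38, 4.89 and 5.03 in WT, 4.36, 4.39, 4.28 and 4.43 in Cyto, and 4.70, 4.56, 4.80 and 4.79 in Nuc. Cyto was the lowest group there, Nuc lay between Cyto and KO, and WT overlapped KO through its replicate 2. The differences were -0.92 ± 0.10 (adjusted p = 7.54e-07) in Cyto, -0.58 ± 0.10 (adjusted p = 0.000155) in Nuc and -0.27 ± 0.10 (adjusted p = 0.034) in WT. The WT call was lost when KO replicate 2, 3 or 4 or WT replicate 1, 3 or 4 was left out (values from -0.19 to -0.28, adjusted p up to 0.13).

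Nuc and Cyto stood in opposite order for Hat1 in the media. Nuc minus Cyto was -0.14 (adjusted p = 0.154) in 10 mM and 0.35 (adjusted p = 0.0138) in 1 mM glucose, and these differed by 0.49 (adjusted p = 0.00751). A list of 12 replication genes is given beside it. Their summed linear level in 10 mM glucose ran from 3340 to 3520 in KO and 2111 to 2261 in WT. It was 1850 to 1923 in Cyto and 1879 to 2035 in Nuc. In each ACLY group 12 of 12 were called lower (all genes called 40.8%, 38.5% and 45.3%). In 1 mM glucose the sums were 1391 to 1588 in KO and 1076 to 1125 in WT. They were 682 to 716 in Cyto and 840 to 971 in Nuc. There 7, 12 and 10 of 12 were called lower and 1, 0 and 1 higher (58.2%, 64.7% and 60% of all genes called). Between Nuc and Cyto the sums overlapped in 10 mM glucose, with 4 called higher and 5 lower in Nuc (31% of all genes). In 1 mM glucose Cyto lay lower, with 7 called higher and 1 lower in Nuc (41%). The median Nuc minus Cyto log2 difference was -0.10 in 10 mM and 0.40 in 1 mM glucose. The part of replication in the Hat1 result was not tested, and in these bulk samples fewer cells of a kind and less RNA per cell cannot be told apart.

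Kat2a (GCN5), the acetyltransferase of the SAGA and ATAC coactivators, was lower in all 3 ACLY groups in 10 mM glucose. Its levels were 6.70, 6.78, 6.83 and 6.86 in KO, 6.22, 6.35, 6.35 and 6.40 in WT, 6.36, 6.42 and 6.40 in Cyto, and 6.14, 6.11, 6.13 and 6.28 in Nuc. Again no ACLY library reached the KO range, and Nuc lay below Cyto throughout. The differences from KO were -0.46 ± 0.06 (adjusted p = 2.26e-05), -0.40 ± 0.07 (adjusted p = 0.000213) and -0.62 ± 0.06 (adjusted p = 6.07e-07) in WT, Cyto and Nuc. Nuc minus Cyto was -0.23 (adjusted p = 0.0178), a call lost without Cyto replicate 2 (-0.21, adjusted p = 0.064) or Cyto replicate 4 (-0.22, adjusted p = 0.052). Kat2a levels in 1 mM glucose were 6.94, 6.85, 6.89 and 6.97 in KO, 6.61, 6.54, 6.61 and 6.64 in WT, 6.84, 6.83, 6.81 and 6.78 in Cyto, and 6.62, 6.75, 6.73 and 6.65 in Nuc. WT (-0.31, adjusted p = 5.46e-05) and Nuc (-0.22, adjusted p = 0.000938) were again below KO, and Cyto was not called (-0.10, adjusted p = 0.0984). The Nuc and Cyto effects were smaller in 1 mM than in 10 mM glucose, by 0.40 (adjusted p = 7.67e-05) and 0.30 (adjusted p = 0.00191).

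Kat14 (CSRP2BP), the second acetyltransferase of the ATAC complex, rose against KO in all 3 ACLY groups in 1 mM glucose. Its levels there were 5.41, 5.50, 5.45 and 5.67 in KO, 5.99, 6.47, 6.02 and 6.08 in WT, 5.98, 6.13, 6.01 and 6.11 in Cyto, and 6.16, 6.06, 6.29 and 6.02 in Nuc, so that no ACLY library overlapped KO. The differences were 0.63 (adjusted p = 3.67e-05), 0.55 (adjusted p = 0.000101) and 0.62 (adjusted p = 3.33e-05). In the 10 mM table KO held 5.53, 5.51, 5.42 and 5.65, WT 5.91, 5.80, 5.88 and 5.94, Cyto 5.78, 5.93 and 5.63, and Nuc 5.78, 5.51, 6.00 and 5.73. WT alone was called (0.35 ± 0.10, adjusted p = 0.00762). Of the exonic bases of Kat14, 18.2% overlap Pet117 on the same strand, and reads from the shared bases cannot be told apart.

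Kat6a (MOZ), the H3 acetyltransferase that works with the reader Brpf1, was lower than KO in 1 mM glucose. It stood at 7.56, 7.45, 7.58 and 7.23 in KO, 6.71, 5.60, 6.91 and 7.11 in WT, 6.17, 6.87, 6.67 and 6.49 in Cyto, and 6.79, 6.87, 6.64 and 6.51 in Nuc. All 12 ACLY libraries lay below the KO range. The differences were -0.87 (adjusted p = 0.0045) in WT, -0.91 (adjusted p = 0.00276) in Cyto and -0.75 (adjusted p = 0.0109) in Nuc, and without WT replicate 2 the WT value was -0.54 (adjusted p = 0.00256). In the 10 mM table KO held 7.61, 7.29, 7.07 and 6.91, WT 7.06, 6.88, 7.16 and 6.40, Cyto 6.61, 6.37 and 6.22, and Nuc 6.95, 7.31, 7.04 and 5.96. Cyto alone was called lower (-0.82 ± 0.26, adjusted p = 0.0176), and the call was lost without KO replicate 1 (-0.69, adjusted p = 0.052), Cyto replicate 2 (-0.81, adjusted p = 0.051) or Cyto replicate 4 (-0.73, adjusted p = 0.071).

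Ncoa1 and Ncoa3, steroid receptor coactivators to which acetyltransferase activity has been ascribed, rose in Cyto in 1 mM glucose. Ncoa1 stood at 5.71, 5.86, 5.68 and 5.48 in KO, 5.86, 4.86, 5.87 and 5.65 in WT, 6.38, 6.40, 6.29 and 6.10 in Cyto, and 6.30, 6.17, 6.14 and 5.98 in Nuc. Cyto and Nuc lay above all KO and WT libraries. The differences from KO were 0.61 (adjusted p = 0.00436) in Cyto and 0.46 (adjusted p = 0.0253) in Nuc, the latter lost without KO replicate 4 (0.39, adjusted p = 0.076) or Nuc replicate 1 (0.41, adjusted p = 0.07). Against WT they were 0.73 and 0.58, and 0.50 and 0.35 without WT replicate 2, called either way. Ncoa3 stood at 5.89, 5.89, 5.68 and 5.35 in KO, 5.61, 4.90, 5.75 and 5.40 in WT, 6.22, 6.30, 6.02 and 6.09 in Cyto, and 5.97, 5.80, 5.72 and 5.63 in Nuc. Cyto was above KO by 0.45 (adjusted p = 0.016; 0.34 and adjusted p = 0.066 without KO replicate 4) and above WT by 0.74 (adjusted p = 0.000636; 0.57 without WT replicate 2).

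Ncoa1 libraries in 10 mM glucose ran from 4.81 to 5.54 with no call, and those of Ncoa3 were 5.17, 5.90, 5.63 and 5.33 in KO, 5.46, 5.60, 5.40 and 5.27 in WT, 5.65, 5.39 and 5.88 in Cyto, and 5.23, 5.11, 5.17 and 4.75 in Nuc. Nuc lay below Cyto without overlap (Ncoa3, -0.58, adjusted p = 0.0124) and below KO with overlap (-0.44, adjusted p = 0.0254). The first call was lost without Cyto replicate 4 (-0.46, adjusted p = 0.075), and the second without KO replicate 2, KO replicate 3 or Nuc replicate 4 (-0.31 to -0.40, adjusted p up to 0.097).

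Among the remaining writers, Kat7 (HBO1), an acetyltransferase linked to replication origins, was lower than KO in 10 mM glucose by 0.47 in WT (log2 difference -0.47, adjusted p = 0.000623) and 0.42 in Nuc (-0.42, adjusted p = 0.0012). In 1 mM glucose it was lower in WT (-0.30, adjusted p = 0.00566), and Cyto exceeded WT by 0.39 (adjusted p = 0.000793). Naa40, which acetylates the N-termini of histones H4 and H2A, was higher in WT than KO in 1 mM glucose (0.36, adjusted p = 0.000135). Kat8 (MOF), the H4K16 acetyltransferase, was higher in Cyto there (0.29, adjusted p = 0.00528). Kat5 (TIP60) was lower in Nuc there (-0.41, adjusted p = 0.00602), with 18.9% of its exonic bases opposite Rnaseh2c. Kat2b (PCAF) was 0.50 higher in Nuc than in WT (adjusted p = 0.000467). Ep300 was lower in WT than KO (-0.61, adjusted p = 0.0252), its WT libraries at 7.56, 6.14, 7.43 and 7.22. That value was -0.29 (adjusted p = 0.0344) without WT replicate 2, and the call was lost without KO replicate 1 (-0.53, adjusted p = 0.071) or KO replicate 3 (-0.57, adjusted p = 0.057).

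Class I deacetylases are the catalytic subunits of corepressor complexes. Against KO in 10 mM glucose 0 of 4 were called in WT (40.8% of all genes), 1 higher and 1 lower in Cyto (38.5%) and 1 higher in Nuc (45.3%). The counts in 1 mM glucose were 1 higher in WT (58.2% of all genes called), 2 higher and 1 lower in Cyto (64.7%), and 2 higher and 1 lower in Nuc (60%). Hdac2 was the member higher than KO in all 3 ACLY groups in 1 mM glucose (0.36, 0.22 and 0.28) and in Nuc in 10 mM glucose (0.22, adjusted p = 0.0115). Under quantile normalization the Hdac2 call in Cyto was lost (0.10, adjusted p = 0.201). Hdac1, its close paralog, was lower in Cyto in 1 mM glucose (-0.30, adjusted p = 0.00491). Hdac3, the enzyme of the NCOR complexes, was lower in Nuc than Cyto in 1 mM glucose (-0.30, adjusted p = 0.00123).

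Hdac8, the class I enzyme that deacetylates the cohesin subunit SMC3, gave the largest class I change. Its levels in 1 mM glucose were 3.66, 3.52, 3.67 and 3.74 in KO, 3.62, 4.08, 3.86 and 3.73 in WT, 4.64, 4.64, 4.72 and 4.65 in Cyto, and 4.09, 3.98, 3.70 and 3.84 in Nuc. Cyto stood apart from all other libraries, above KO by 1.02 ± 0.10 (adjusted p = 1.96e-07), above WT by 0.84 (adjusted p = 3.54e-06) and above Nuc, with a Nuc minus Cyto value of -0.76 (adjusted p = 1.64e-05). Its levels in 10 mM glucose were 3.47, 3.41, 3.53 and 3.44 in KO, 3.80, 3.36, 3.66 and 3.53 in WT, 3.81, 3.82 and 3.95 in Cyto, and 3.22, 3.63, 3.69 and 3.48 in Nuc. Cyto was again the highest group, at 0.40 ± 0.14 over KO (adjusted p = 0.0305). That call was lost without KO replicate 2 or 4 or any of Cyto replicates 1, 2 and 4 (0.35 to 0.42, adjusted p up to 0.10). The Cyto effect was larger in 1 mM glucose by 0.62 (adjusted p = 0.00239).

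The class II and IV deacetylases held the largest changes of the 40 genes. Against KO in 10 mM glucose 1 of 7 was higher and 1 lower in WT, 3 higher and 0 lower in Cyto, and 3 higher and 1 lower in Nuc. The 1 mM counts were 1 higher and 3 lower in WT, 2 higher and 2 lower in Cyto, and 2 higher and 2 lower in Nuc. Those called made up 28.6%, 42.9% and 57.1% of the 7 in 10 mM glucose (all genes 40.8%, 38.5% and 45.3%). In 1 mM glucose they made up 57.1% in each group (all genes 58.2%, 64.7% and 60%).

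Hdac5, a class IIa enzyme that shuttles between nucleus and cytoplasm and represses MEF2 targets, rose in every ACLY group in 10 mM glucose. Its levels were 5.79, 5.92, 5.86 and 5.93 in KO, 6.53, 6.42, 6.49 and 6.67 in WT, 6.95, 6.69 and 6.64 in Cyto, and 6.61, 6.47, 6.67 and 6.78 in Nuc. No ACLY library overlapped KO. The differences were 0.65 ± 0.08 (adjusted p = 1.19e-05), 0.89 ± 0.09 (adjusted p = 1.12e-06) and 0.76 ± 0.08 (adjusted p = 1.67e-06). The 1 mM libraries held 6.26, 6.08, 6.21 and 5.97 in KO, 6.62, 6.50, 6.49 and 6.55 in WT, 6.53, 6.29, 6.25 and 6.29 in Cyto, and 5.69, 6.00, 6.04 and 6.07 in Nuc. WT was above KO (0.41 ± 0.09, adjusted p = 0.000916), Cyto and Nuc overlapped KO, and Nuc was below WT (-0.59, adjusted p = 7.22e-05). Nuc minus KO was 0.76 in 10 mM and -0.18 in 1 mM glucose (adjusted p of the latter 0.0982), a difference between media of -0.93 ± 0.12 (adjusted p = 7.97e-07). The difference between media in Cyto minus KO was -0.67 (adjusted p = 9.9e-05). Cyto minus KO in 1 mM glucose was 0.21 (adjusted p = 0.0486), and it was lost without KO replicate 2 or 4 or Cyto replicate 1, 2 or 4 (0.15 to 0.23, adjusted p up to 0.17).

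Hdac6, the class IIb deacetylase of tubulin and other cytoplasmic proteins, fell in WT and Nuc in both media. The 10 mM libraries held 4.96, 5.24, 5.00 and 5.03 in KO, 4.05, 4.47, 4.47 and 4.28 in WT, 4.86, 5.08 and 4.86 in Cyto, and 4.29, 4.63, 4.76 and 4.33 in Nuc. WT and Nuc lay below KO, and Cyto overlapped it. The differences from KO were -0.74 ± 0.12 (adjusted p = 0.000177) in WT, -0.56 (adjusted p = 0.00159) in Nuc and -0.13 (adjusted p = 0.495) in Cyto, and Cyto was above WT by 0.61 (adjusted p = 0.00235). Its levels in 1 mM glucose were 4.98, 4.73, 4.92 and 5.05 in KO, 4.10, 3.59, 4.0002 and 4.28 in WT, 4.56, 4.43, 4.41 and 4.57 in Cyto, and 3.92, 3.99, 3.81 and 3.98 in Nuc. KO was highest, Cyto next, and WT and Nuc lowest and overlapping. The differences from KO were -0.92 ± 0.12 (adjusted p = 4.5e-06), -0.42 (adjusted p = 0.00442) and -0.995 ± 0.12 (adjusted p = 1.54e-06) in WT, Cyto and Nuc. Nuc was below Cyto in 1 mM (-0.57, adjusted p = 0.000875) and in 10 mM glucose (-0.43, adjusted p = 0.022). The latter call was lost without Cyto replicate 2 (-0.36, adjusted p = 0.10), Nuc replicate 1 (-0.36, adjusted p = 0.066) or Nuc replicate 4 (-0.38, adjusted p = 0.052).

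Hdac11, the single class IV enzyme, which removes long fatty acyl groups from lysine, rose in Cyto and Nuc but not in WT in 10 mM glucose. Its levels were 2.98, 2.43, 2.60 and 2.87 in KO, 2.97, 2.39, 2.64 and 2.47 in WT, 3.66, 3.69 and 3.68 in Cyto, and 3.79, 4.12, 3.62 and 3.86 in Nuc. Cyto and Nuc lay above all KO and WT libraries. Cyto exceeded KO by 0.95 ± 0.17 (adjusted p = 0.000393) and WT by 1.06 (adjusted p = 0.000224). Nuc exceeded KO by 1.13 ± 0.16 (adjusted p = 2.79e-05) and WT by 1.23 ± 0.16 (adjusted p = 2.78e-05). The 1 mM libraries held 3.49, 3.72, 3.42 and 3.29 in KO, 3.41, 2.89, 2.63 and 3.04 in WT, 3.84, 3.19, 3.36 and 3.39 in Cyto, and 3.43, 3.57, 3.46 and 3.81 in Nuc. Neither Cyto (-0.04, adjusted p = 0.854) nor Nuc (0.08, adjusted p = 0.678) was called against KO there, and Nuc exceeded WT by 0.58 (adjusted p = 0.0105). The Cyto and Nuc effects differed between media by -0.99 (adjusted p = 0.00132) and -1.04 (adjusted p = 0.000722). Cyto minus WT in 1 mM glucose was 0.46 (adjusted p = 0.0275), a call lost without WT replicate 2 (0.42, adjusted p = 0.051), WT replicate 3 (0.33, adjusted p = 0.099) or Cyto replicate 1 (0.32, adjusted p = 0.11). WT minus KO was -0.49 (adjusted p = 0.0168), lost without KO replicate 2 (-0.41, adjusted p = 0.058) or WT replicate 3 (-0.37, adjusted p = 0.064). Of its exonic bases, 22.4% lie opposite Gm44002, and the sources used here do not give whether the counting used strand.

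Hdac9, a class IIa repressor of MEF2, had the lowest level of the 40 per kilobase of transcript in both media and gave the largest change. Its levels in 10 mM glucose were -0.50, 1.31, 0.68 and 0.68 in KO, 0.38, 0.39, 0.73 and -0.16 in WT, 0.09, 0.79 and 1.08 in Cyto, and 2.25, 1.96, 2.02 and 1.47 in Nuc. All 4 Nuc libraries lay above every other library. Nuc exceeded KO by 1.38 ± 0.36 (adjusted p = 0.00507), WT by 1.59 ± 0.36 (adjusted p = 0.00337) and Cyto by 1.27 ± 0.39 (adjusted p = 0.0203). The last call was lost without Cyto replicate 1 (0.99, adjusted p = 0.11) or Nuc replicate 1 (1.16, adjusted p = 0.055). In the 1 mM table KO held 0.36, 0.90, 0.27 and 0.09, WT 0.37, -0.27, 0.47 and -0.25, Cyto 0.50, 0.83, -0.0019 and 1.13, and Nuc 1.45, 1.07, 1.05 and 1.00. Nuc lay above KO and WT and overlapped Cyto. Nuc exceeded WT by 1.06 ± 0.27 (adjusted p = 0.00534) and KO by 0.73 ± 0.27 (adjusted p = 0.0275), the latter lost without KO replicate 1, 3 or 4 or Nuc replicate 1 (0.63 to 0.72, adjusted p up to 0.081).

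Hdac7, the class IIa enzyme known from endothelium and thymocytes, rose in Cyto in 10 mM glucose. Its levels were 7.17, 7.35, 7.24 and 7.47 in KO, 7.23, 7.11, 7.22 and 7.21 in WT, 7.93, 7.93 and 7.80 in Cyto, and 7.40, 7.52, 7.45 and 7.50 in Nuc. Cyto exceeded all other libraries, by 0.58 ± 0.07 over KO (adjusted p = 7.52e-06) and 0.69 ± 0.07 over WT (adjusted p = 1.72e-06). In the 1 mM table the 16 libraries ran from 6.90 to 7.37 with no call for Hdac7 (Cyto minus KO -0.03, adjusted p = 0.706), and the Cyto effect differed between media by -0.61 (adjusted p = 2.18e-05).

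Hdac4, the class IIa enzyme best known from cartilage and muscle, and Hdac10, a polyamine deacetylase, were called against KO in 1 mM glucose and not in 10 mM glucose. Hdac4 stood at 6.31, 6.20, 6.23 and 6.08 in KO, 6.35, 5.53, 6.40 and 6.30 in WT, 6.69, 7.01, 6.74 and 6.73 in Cyto, and 6.76, 6.63, 6.64 and 6.49 in Nuc. Cyto exceeded KO by 0.58 (adjusted p = 0.00186) and WT by 0.65 (adjusted p = 0.00111; 0.44 without WT replicate 2). Nuc exceeded KO by 0.42 (adjusted p = 0.0179), a call lost without Nuc replicate 1 (0.38, adjusted p = 0.052) or KO replicate 4 (0.38, adjusted p = 0.05), and WT by 0.49 (0.28 without WT replicate 2). Hdac10 stood at 4.76, 4.74, 4.82 and 4.98 in KO, 4.14, 4.68, 4.21 and 4.46 in WT, 4.24, 3.9995, 4.29 and 4.25 in Cyto, and 4.39, 4.50, 4.48 and 4.46 in Nuc. All 12 ACLY libraries lay below KO, by -0.45 (adjusted p = 0.0016), -0.63 ± 0.11 (adjusted p = 6.05e-05) and -0.37 (adjusted p = 0.00654) in WT, Cyto and Nuc. The Cyto effect on Hdac10 differed between media by -0.63 (adjusted p = 0.00132). In 10 mM glucose Hdac4 ran from 4.88 to 5.89 and Hdac10 from 4.62 to 5.19 over the 15 libraries, with the groups overlapping.

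**Figure D3:**
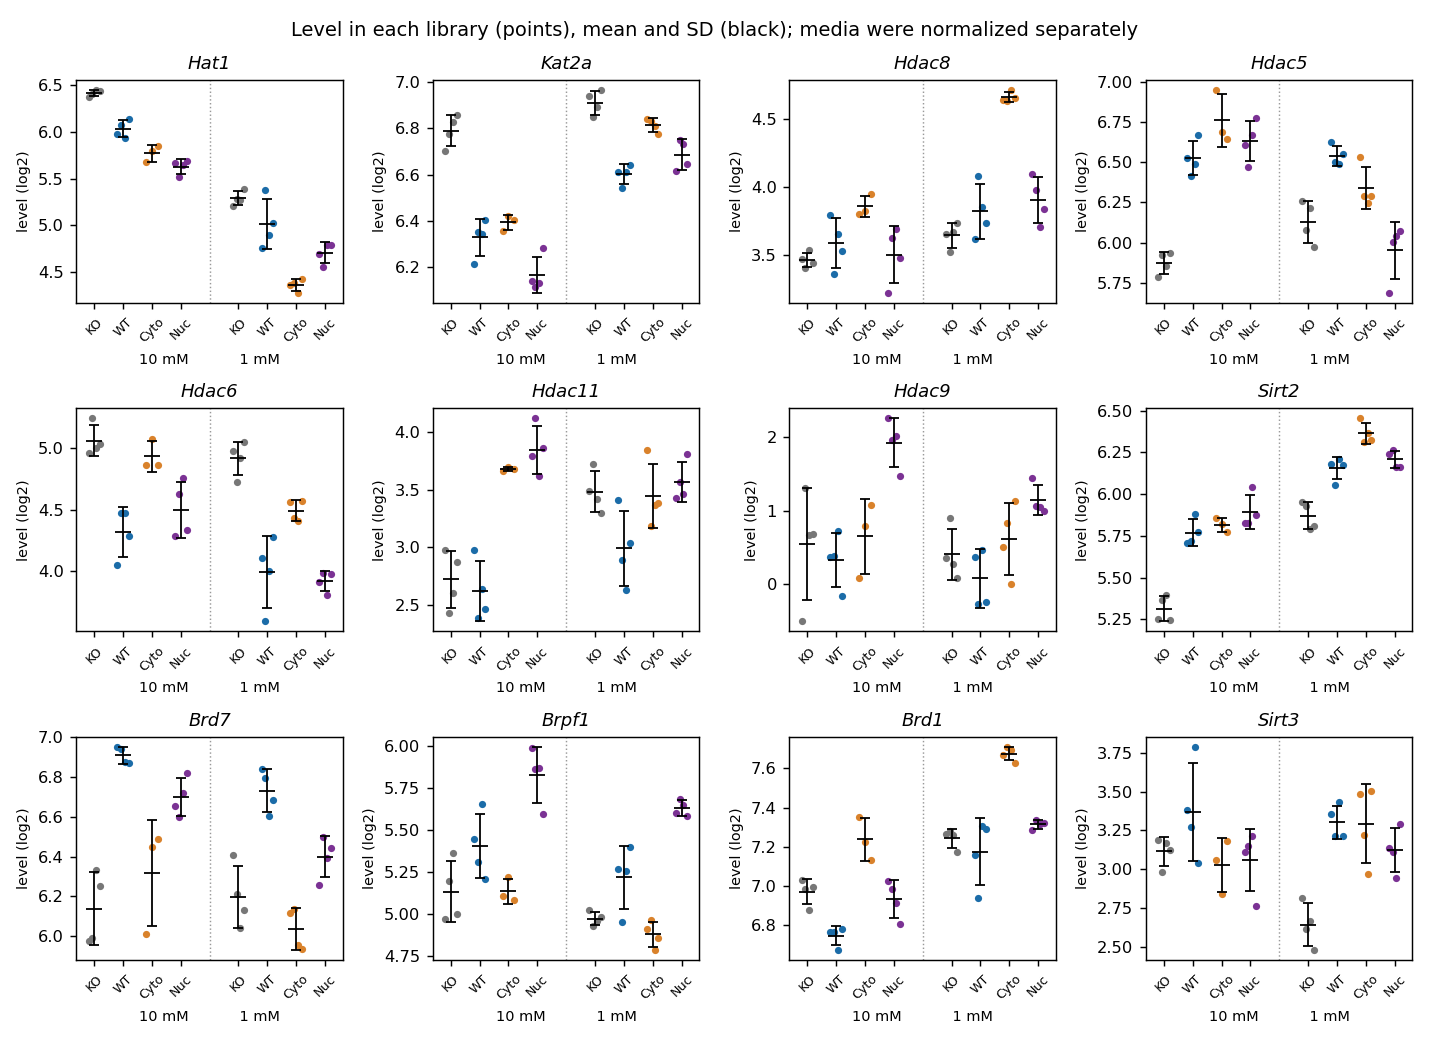
Level of 12 of the genes (y axes, deposited log2 values) in each library (points), with mean and SD in black, for KO, WT, Cyto and Nuc in 10 mM and 1 mM glucose (x axes); the media were normalized separately. Hat1 in 10 mM glucose shows all ACLY libraries at 6.14 or less and all KO libraries at 6.37 or more, and Hdac8 in 1 mM glucose shows Cyto at 4.64 to 4.72.

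Of 7 sirtuins, 3 were higher than KO in WT in 10 mM glucose (40.8% of all genes called, 50.4% of those higher), 3 in Cyto (38.5% and 50.8%) and 1 in Nuc (45.3% and 50%), with 0 lower. For 1 mM glucose 4 were higher and 1 lower in WT, 3 higher and 0 lower in Cyto, and 2 higher and 1 lower in Nuc, where 58.2%, 64.7% and 60% of all genes were called and 51%, 49% and 50.9% of those called were higher.

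Sirt2, the mainly cytoplasmic sirtuin that deacetylates tubulin and H4K16, rose in all 6 comparisons with KO. The 10 mM libraries held 5.25, 5.36, 5.40 and 5.25 in KO, 5.71, 5.72, 5.88 and 5.78 in WT, 5.86, 5.82 and 5.77 in Cyto, and 5.83, 5.83, 6.05 and 5.88 in Nuc. Its levels in 1 mM glucose were 5.95, 5.93, 5.79 and 5.81 in KO, 6.18, 6.06, 6.21 and 6.17 in WT, 6.45, 6.31, 6.37 and 6.32 in Cyto, and 6.24, 6.26, 6.16 and 6.16 in Nuc. Every ACLY library lay above the KO libraries of its medium. The differences were 0.46 ± 0.07, 0.50 ± 0.08 and 0.58 ± 0.07 in 10 mM (adjusted p = 9.94e-05, 8.86e-05 and 6.23e-06) and 0.28, 0.49 and 0.34 in 1 mM glucose (adjusted p = 0.000539, 1.26e-06 and 9.81e-05), for WT, Cyto and Nuc.

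Sirt3, the main deacetylase of the mitochondrial matrix, rose in 1 mM glucose. It stood at 2.81, 2.62, 2.67 and 2.48 in KO, 3.35, 3.22, 3.43 and 3.22 in WT, 3.48, 3.22, 2.97 and 3.51 in Cyto, and 3.13, 3.11, 2.95 and 3.29 in Nuc. No ACLY library overlapped KO, and the differences were 0.66 ± 0.13 (adjusted p = 0.000276), 0.65 (adjusted p = 0.000236) and 0.48 (adjusted p = 0.00351). Its 10 mM levels were 3.19, 2.98, 3.17 and 3.12 in KO, 3.38, 3.27, 3.79 and 3.04 in WT, 3.06, 2.84 and 3.18 in Cyto, and 3.11, 3.15, 3.21 and 2.76 in Nuc, and none was called (0.25, -0.09 and -0.06). The Cyto effect differed between media by 0.74 (adjusted p = 0.00473). Of the exonic bases of Sirt3, 8.8% lie opposite Psmd13.

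Sirt1, the nuclear sirtuin that deacetylates p53 and PGC-1alpha, was split by construct in 1 mM glucose. It stood at 3.95, 4.36, 4.21 and 4.48 in KO, 3.92, 3.69, 3.79 and 3.93 in WT, 4.24, 4.31, 4.41 and 4.34 in Cyto, and 3.82, 3.66, 3.82 and 3.50 in Nuc. WT and Nuc lay below KO and Cyto. WT minus KO was -0.42 (adjusted p = 0.00383), Nuc minus KO -0.55 (adjusted p = 0.000385) and Nuc minus Cyto -0.63 ± 0.11 (adjusted p = 0.000226). Its 15 libraries in 10 mM glucose ran from 3.47 to 4.33 with no call, and the WT effect differed between media by -0.57 (adjusted p = 0.0173).

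Sirt7, the nucleolar H3K18 deacetylase, rose in 10 mM glucose in WT and Cyto. It stood at 3.94, 3.58, 3.65 and 3.95 in KO, 4.41, 4.23, 4.31 and 4.08 in WT, 4.34, 4.33 and 4.63 in Cyto, and 3.95, 4.34, 4.03 and 3.81 in Nuc. WT and Cyto did not overlap KO, and Nuc did. The differences were 0.48 (adjusted p = 0.00957) in WT and 0.65 ± 0.14 (adjusted p = 0.00197) in Cyto. Its 1 mM levels were 3.70, 3.64, 3.68 and 3.60 in KO, 3.80, 3.996, 3.73 and 4.03 in WT, 3.68, 3.29, 3.35 and 3.39 in Cyto, and 3.93, 3.46, 3.40 and 3.82 in Nuc. Cyto lay below WT there (-0.47, adjusted p = 0.00439), and the Cyto effect against KO differed between media by -0.88 (adjusted p = 0.000392). Of the other sirtuins, Sirt6, a chromatin-bound H3K9 deacetylase, was higher in WT than KO in 1 mM glucose (0.36, adjusted p = 0.00462), as was Sirt5, a mitochondrial desuccinylase (0.46, adjusted p = 0.0115).

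The readers were called in both directions. Against KO in 10 mM glucose 1 of 8 was higher and 1 lower in WT, 1 higher and 2 lower in Cyto, and 2 higher and 0 lower in Nuc. In 1 mM glucose 2 were higher and 2 lower in WT, 2 higher and 3 lower in Cyto, and 2 higher and 2 lower in Nuc. Those called made up 25%, 37.5% and 25% of the 8 in 10 mM glucose (all genes 40.8%, 38.5% and 45.3%). In 1 mM glucose they made up 50%, 62.5% and 50% (all genes 58.2%, 64.7% and 60%). Brd7, Brpf1 and Brd1 separated the constructs most.

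Brd7, a subunit of the PBAF remodelling complex, was highest in WT in both media. Its levels in 10 mM glucose were 5.98, 5.99, 6.33 and 6.25 in KO, 6.95, 6.94, 6.87 and 6.87 in WT, 6.01, 6.45 and 6.49 in Cyto, and 6.65, 6.60, 6.72 and 6.82 in Nuc. WT lay above Nuc, Nuc above KO and Cyto, and the last 2 overlapped. Brd7 was not called between Nuc and WT there. WT exceeded KO by 0.77 ± 0.10 (adjusted p = 1.92e-05), Nuc exceeded KO by 0.56 (adjusted p = 0.000315), and Cyto minus WT was -0.59 (adjusted p = 0.00069). The 1 mM libraries held 6.41, 6.21, 6.04 and 6.13 in KO, 6.84, 6.79, 6.60 and 6.69 in WT, 6.12, 6.14, 5.96 and 5.93 in Cyto, and 6.26, 6.50, 6.39 and 6.44 in Nuc. WT was again above every other library, and Nuc lay above Cyto. WT exceeded KO by 0.53 ± 0.08 (adjusted p = 3.99e-05), and Cyto minus WT was -0.69 (adjusted p = 2.74e-06). Nuc minus Cyto was 0.36 (adjusted p = 0.00218) in 1 mM and 0.38 (adjusted p = 0.0151) in 10 mM glucose, the latter lost without Cyto replicate 1 (0.23, adjusted p = 0.11). Nuc minus KO in 1 mM glucose was 0.20 (adjusted p = 0.0476), lost without KO replicate 2, 3 or 4 or Nuc replicate 2, 3 or 4 (0.15 to 0.20, adjusted p up to 0.16).

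Brpf1, the scaffold of the MOZ and MORF acetyltransferase complexes, was highest in Nuc in both media. The 10 mM libraries held 4.97, 5.20, 5.36 and 5.00 in KO, 5.45, 5.31, 5.65 and 5.21 in WT, 5.11, 5.22 and 5.08 in Cyto, and 5.99, 5.86, 5.87 and 5.60 in Nuc. Its levels in 1 mM glucose were 5.02, 4.93, 4.96 and 4.98 in KO, 5.27, 4.95, 5.26 and 5.40 in WT, 4.91, 4.96, 4.79 and 4.86 in Cyto, and 5.60, 5.69, 5.65 and 5.58 in Nuc. Nuc cleared every other library in 1 mM glucose, and in 10 mM glucose it cleared KO and Cyto and overlapped WT. Nuc exceeded KO by 0.70 ± 0.11 (adjusted p = 9.14e-05) and 0.66 ± 0.08 (adjusted p = 2.21e-06), Cyto by 0.69 ± 0.12 (adjusted p = 0.000389) and 0.75 ± 0.08 (adjusted p = 1.15e-06), in 10 mM and 1 mM glucose. Over WT the Nuc values were 0.43 (adjusted p = 0.00933) and 0.41. These calls held with each library left out in turn.

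Brd1, the scaffold of HBO1 complexes, was highest in Cyto in both media. Its levels in 10 mM glucose were 7.03, 6.99, 6.88 and 6.99 in KO, 6.77, 6.76, 6.68 and 6.78 in WT, 7.35, 7.23 and 7.13 in Cyto, and 7.03, 6.99, 6.91 and 6.80 in Nuc. The 1 mM libraries held 7.26, 7.28, 7.26 and 7.17 in KO, 7.16, 6.94, 7.31 and 7.29 in WT, 7.67, 7.71, 7.69 and 7.63 in Cyto, and 7.28, 7.34, 7.32 and 7.32 in Nuc. Cyto cleared every other library in each medium. Cyto exceeded KO by 0.27 (adjusted p = 0.00651) and 0.43 ± 0.07 (adjusted p = 2.58e-05), and WT by 0.49 (adjusted p = 5.92e-05) and 0.50 (adjusted p = 8.72e-06), in 10 mM and 1 mM glucose. Brd1 was among the genes just outside the 20 with the largest called changes without overlap (0.50), with Kat2b at 0.50 and Brd9 at 0.48 next to it, and Sirt2 at 0.58 just inside.

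Brd9, a subunit of the non-canonical BAF complex, was lower than KO in all 3 ACLY groups in 1 mM glucose (-0.48, -0.38 and -0.37) and was not called in 10 mM glucose. Its KO libraries in 1 mM glucose held 5.17, 5.15, 5.24 and 5.35, and its WT libraries 4.81, 4.70, 4.74 and 4.72. Each of the Brd9 differences changed between media, by -0.39, -0.45 and -0.40 (adjusted p = 0.00748, 0.00158 and 0.00427). Brd8, a TIP60 complex subunit, was lower than KO in 1 mM glucose in all 3 ACLY groups (WT, -0.38; Cyto, -0.32; Nuc, -0.23), as it was in 10 mM glucose in Cyto (-0.32). Brd2 and Brd3, BET proteins that read acetylated H4, gave Cyto minus KO values in 1 mM glucose of -0.15 (adjusted p = 0.00877) for Brd2 and 0.36 (adjusted p = 0.0238) for Brd3. The Brd2 call was lost with the length trend removed (-0.07, adjusted p = 0.335) and without all libraries numbered 4 (-0.13, adjusted p = 0.073). The Brd3 call was lost without KO replicate 2 or 3 or Cyto replicate 3 or 4 (0.31 to 0.35, adjusted p up to 0.067).

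Levels of different genes were compared only per kilobase of transcript, in KO. Brd2 was highest in both media (log2 level per kilobase 6.09 in 10 mM and 6.49 in 1 mM glucose), and Hdac9 lowest (-2.45 and -2.58). Hdac11, Sirt1, Sirt4 and Sirt5 were also among the 6 lowest, and Hdac3, Hdac2, Hdac7, Kat2a and Kat7 were among the 7 highest in each medium.

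Acetylation genes called against KO in both media moved in the same direction without exception. For WT there were 11, with Kat8, Kat14, Naa40, Hdac5, Sirt2, Sirt6 and Brd7 higher and Kat2a, Kat7, Hat1 and Hdac6 lower. For Cyto there were 9, with Hdac8, Hdac5, Sirt2, Sirt6 and Brd1 higher and Kat6a, Hat1, Hdac1 and Brd8 lower. For Nuc there were 8, with Hdac2, Hdac9, Sirt2, Brd7 and Brpf1 higher and Kat2a, Hat1 and Hdac6 lower. Nuc against Cyto gave 5, with Brd7 and Brpf1 higher and Kat2a, Hdac6 and Brd1 lower in Nuc. Some of these calls were lost when 1 library was left out. For 10 mM glucose, losses given above were Hdac8 and Kat6a in Cyto, and Kat2a, Hdac6 and Brd7 between Nuc and Cyto. For 1 mM glucose they were Hat1 in WT, Hdac5 in Cyto, and Hdac9 and Brd7 in Nuc. The losses not given above follow by medium. In 10 mM glucose these were Kat8 in WT without KO replicate 1 or 2 or WT replicate 4 (0.35 to 0.41, adjusted p up to 0.078), Naa40 in WT without KO replicate 3 or 4 or WT replicate 1, 3 or 4 (0.14 to 0.20, adjusted p up to 0.14), and Hdac1 in Cyto without KO replicate 2 or 4 or Cyto replicate 1 or 2 (-0.19 to -0.23, adjusted p up to 0.12). Sirt6 was lost there in WT without KO replicate 3 or 4 or WT replicate 2 or 3 (0.33 to 0.36, adjusted p up to 0.10), and in Cyto without KO replicate 3 or 4 or Cyto replicate 1 or 2 (0.36 to 0.41, adjusted p up to 0.11). In 1 mM glucose these were Kat8 in WT without KO replicate 1, 2 or 4 or WT replicate 2 or 4 (0.14 to 0.20, adjusted p up to 0.12), Sirt6 in Cyto without any library but KO replicate 3 and Cyto replicate 2 (0.18 to 0.23, adjusted p up to 0.15), and Kat2a between Nuc and Cyto without any library but Nuc replicate 2 (-0.10 to -0.14, adjusted p up to 0.14). Comparisons with KO share the KO libraries, so their values are given side by side and not as separate support. Of all genes, 40.8%, 38.5% and 45.3% (WT, Cyto, Nuc) were called against KO in 10 mM glucose. In 1 mM glucose these shares were 58.2%, 64.7% and 60%. Over all genes, the share called in both media and its agreement in direction were not counted. The agreement is therefore not read as particular to acetylation genes.

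Differences of fold changes between media were tested on the 11931 shared genes. Between WT and KO 3 of the 40 were called (26.2% of all genes), between Cyto and KO 13 (44.7%), between Nuc and KO 13 (36.5%) and between Nuc and Cyto 4 (19%). The 7 largest called differences, 1 mM minus 10 mM and against KO, were in order Hdac11 in Nuc (-1.04) and Cyto (-0.99), Hdac5 in Nuc (-0.93), Sirt7 in Cyto (-0.88), Sirt3 in Cyto (0.74), Hdac5 in Cyto (-0.67) and Ncoa1 in Cyto (0.65). The Hdac11 difference from KO was 1.13 in 10 mM and 0.08 in 1 mM glucose in Nuc and 0.95 and -0.04 in Cyto, and that of Sirt7 in Cyto was 0.65 and -0.23. The Ncoa1 call was lost without KO replicate 2 of the 10 mM table (0.55, adjusted p = 0.058), Cyto replicate 2 of the 10 mM table (0.57, adjusted p = 0.066) or KO replicate 4 of the 1 mM table (0.58, adjusted p = 0.052). Medium and sequencing batch cannot be told apart in these differences.

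**Figure D4:**
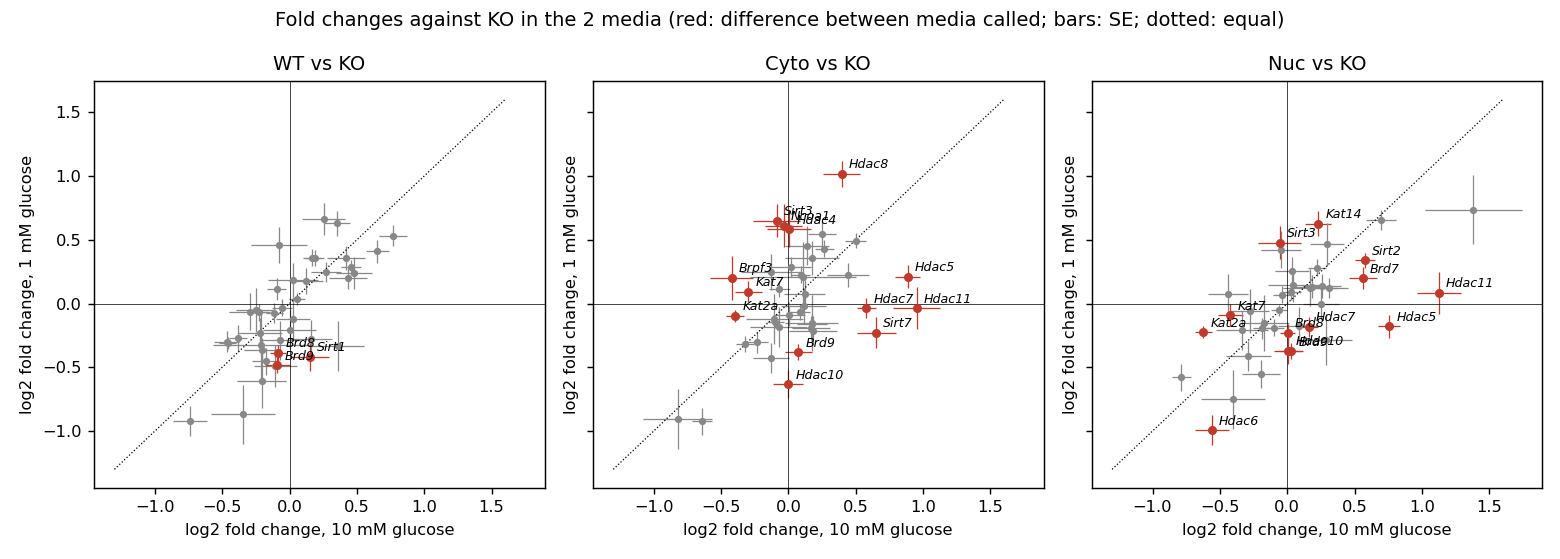
log2 difference from KO in 10 mM glucose (x axes) and in 1 mM glucose (y axes) for the 40 genes in WT, Cyto and Nuc, with SE bars; red and named genes have a called difference between media, and the dotted line marks equal values. Hdac11 and Hdac5 lie far to the right of the line in the Nuc panel (differences of -1.04 and -0.93).

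For members with long transcripts, 2 libraries lay lowest. The 9 members with a transcript of at least 6000 bases were Kat6a, Kat6b, Ep300, Crebbp, Ncoa1, Ncoa3, Hdac4, Hdac9 and Brpf3. Deviations were taken from the mean of the other libraries of the same group. The median deviation of these members was -0.83 in WT replicate 2 in 1 mM glucose and -0.61 in Nuc replicate 4 in 10 mM glucose. In the other libraries this median ran from -0.29 to 0.44, and for the other members it ran from -0.07 to 0.07 in all libraries. Without Nuc replicate 4, Kat6a in Nuc exceeded Cyto in 10 mM glucose by 0.70 (adjusted p = 0.0094), against 0.42 (adjusted p = 0.236) with it, and Ncoa1 in Nuc exceeded KO by 0.36 (adjusted p = 0.0382), against 0.29 (adjusted p = 0.0704). Without WT replicate 2, Kat6a in Cyto was below WT in 1 mM glucose by -0.36 (adjusted p = 0.0312), against -0.04 (adjusted p = 0.906). RNA quality was not measured in the files, and its part was not tested.

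**Figure D5:**
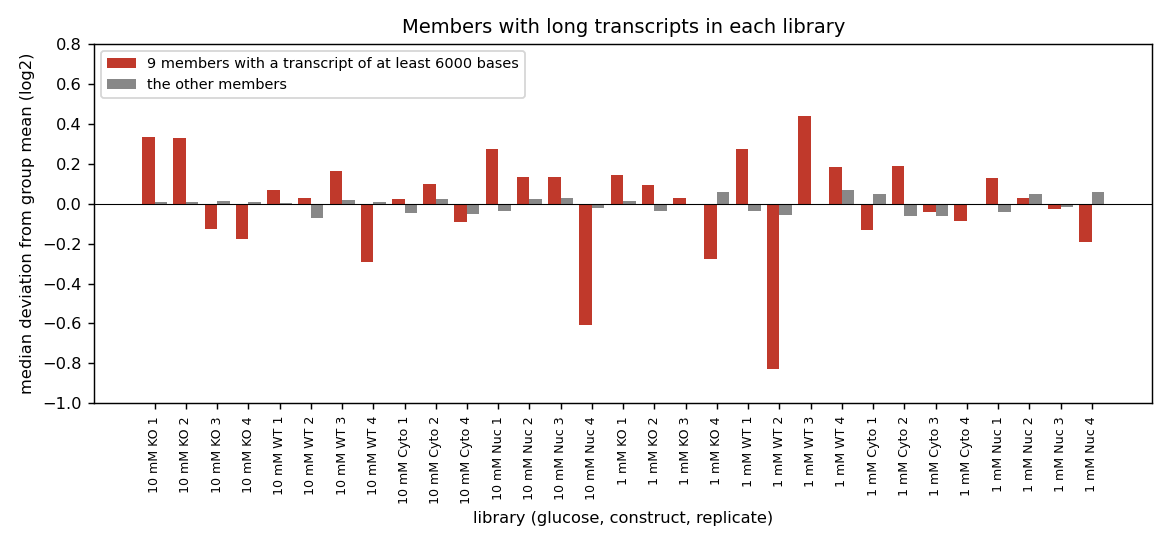
Median deviation from the mean of the other libraries of the same group (y axis, log2), in each library (x axis). Red bars are the 9 members with a transcript of at least 6000 bases, and grey bars the other members. The red bars of WT replicate 2 in 1 mM glucose (-0.83) and Nuc replicate 4 in 10 mM glucose (-0.61) reach lowest, while grey bars stay between -0.07 and 0.07.

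Other genes of the acetylation machinery came from lists of the partners and relatives of the 40. In comparisons with KO the share of all genes called was 40.8%, 38.5% and 45.3% (WT, Cyto, Nuc) in 10 mM and 58.2%, 64.7% and 60% in 1 mM glucose. Of 38 partners of acetyltransferases in their complexes, 6 were higher and 11 lower in WT than KO in 10 mM glucose, 6 and 5 in Cyto, and 8 and 12 in Nuc. The counts in 1 mM glucose were 10 and 12, 13 and 10, and 8 and 7. The partners called were thus 44.7%, 28.9% and 52.6% in 10 mM and 57.9%, 60.5% and 39.5% in 1 mM glucose. Vps72, which chaperones H2A.Z in the TIP60 complex, rose in WT (1.11 in 10 mM and 1.18 in 1 mM glucose) and in Cyto (0.80 and 1.27). Msl3, a partner of Kat8, fell in WT (-0.61 and -0.64) and Nuc (-0.88 and -0.80). Tada3, a SAGA and ATAC adaptor, and Ing4, an HBO1 complex subunit, were higher in Nuc than Cyto in both media (Tada3, 0.74 and 0.82; Ing4, 0.78 and 0.74).

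Of 12 other acetyltransferases, 2 were higher and 4 lower in WT than KO in 10 mM glucose, 3 and 5 in Cyto, and 4 and 5 in Nuc, and in 1 mM glucose 4 and 4, 5 and 3, and 4 and 4. Those called made up 50%, 66.7% and 75% of the 12 in 10 mM glucose (all genes 40.8%, 38.5% and 45.3%) and 66.7% in each group in 1 mM glucose (all genes 58.2%, 64.7% and 60%). Taf1, the largest TFIID subunit, fell in every ACLY group (-0.88, -0.42 and -0.80 in 10 mM, -0.998, -0.57 and -0.94 in 1 mM glucose). Esco2, the cohesin acetyltransferase of S phase, fell most in Cyto in 1 mM glucose (-1.74).

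Of 30 deacetylase partners, 5 were higher and 2 lower in WT than KO in 10 mM glucose, 10 and 5 in Cyto, and 7 and 7 in Nuc, and in 1 mM glucose 9 and 7, 10 and 8, and 6 and 8. The called share was 23.3%, 50% and 46.7% in 10 mM glucose (all genes 40.8%, 38.5% and 45.3%) and 53.3%, 60% and 46.7% in 1 mM glucose (all genes 58.2%, 64.7% and 60%). Rcor2, a CoREST scaffold that holds Hdac1 and Hdac2 with the demethylase LSD1, rose by 1.54, 1.69 and 1.65 in 10 mM and 1.84, 1.44 and 1.63 in 1 mM glucose, more than any of the 40 genes against KO. Rbbp7, a histone chaperone of the class I complexes, fell in all of them (-0.83, -0.38 and -0.96; -0.60, -0.34 and -0.86).

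Of 29 other bromodomain and YEATS readers measured, 4 were higher and 5 lower in WT than KO in 10 mM glucose, 2 and 5 in Cyto, and 1 and 9 in Nuc, and in 1 mM glucose 3 and 11, 6 and 10, and 4 and 10. Called readers were 31%, 24.1% and 34.5% in 10 mM glucose (all genes 40.8%, 38.5% and 45.3%) and 48.3%, 55.2% and 48.3% in 1 mM glucose (all genes 58.2%, 64.7% and 60%). Of all genes called, 50.4%, 50.8% and 50% were higher in 10 mM and 51%, 49% and 50.9% in 1 mM glucose. Smarca2 (BRM), a BAF ATPase, fell in Cyto in 10 mM glucose (-0.97) and in 1 mM glucose in WT (-0.83), Cyto (-1.35) and Nuc (-1.11). Trim66, a reader of the TIF1 family, was lower in Nuc than Cyto in 10 mM (-1.68) and 1 mM glucose (-2.63).

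Of the genes that make or spend NAD, the sirtuins' substrate, 14 were measured in 10 mM glucose, with 1 higher and 4 lower in WT than KO, 3 and 3 in Cyto, and 2 and 4 in Nuc. Of 13 measured in 1 mM glucose, 1 was higher and 4 lower in WT, 6 and 3 in Cyto, and 3 and 4 in Nuc. Called NAD genes were 35.7%, 42.9% and 42.9% in 10 mM glucose (all genes 40.8%, 38.5% and 45.3%) and 38.5%, 69.2% and 53.8% in 1 mM glucose (all genes 58.2%, 64.7% and 60%). Parp1, a large consumer of NAD, fell in all 3 groups (-0.84, -0.56 and -0.88 in 10 mM, -0.71, -0.31 and -0.54 in 1 mM glucose). Nadk2, the mitochondrial NAD kinase, fell in 10 mM glucose (-0.86, -0.66 and -1.40) and rose in Cyto in 1 mM glucose (1.27), with Nuc minus Cyto values of -0.73 and -1.26.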

How the data were processed

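RNA-seq values came from 31 libraries of Acly knockout mouse embryonic fibroblasts with 4 constructs in 2 media. The authors deposited 1 table per medium of normalized log2 values per gene. Reads were processed with kallisto, edgeR and limma on GRCm39, per the submitters' processing notes, with versions and settings not given in the sources used here; whole reads could not be recovered, so depth is unknown. Per the labels, RNA was taken with Qiagen RNeasy Plus kits and sequenced by Novogene.

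Values were used as deposited, without a filter, leaving out 1 entry without a symbol per table. Group means were fitted with limma 3.58.1 in R 4.3.3 (prior variance with an intensity trend) over all genes and constructs of a table, with Benjamini-Hochberg adjustment over the table and a threshold of 0.05. The fit was checked on simulated data. Members and lists were chosen with earlier results of these data known. Values per library are given for the 20 members with the largest called change without overlap, and for others where named after their values were seen. From each related list, up to 2 called genes per direction with the smallest adjusted p could be named. Same-numbered libraries were not paired: in 0 of the 12 comparisons did every pair of deviations correlate above 0.1 (-0.18 to 0.36). Some comparisons still showed structure by number. In 10 mM glucose 7 of 8 libraries correlated best with their own number in Nuc against KO, and 1 of 7 in Cyto against KO. In 1 mM glucose these were 6 of 8 in Cyto against KO and 0 of 8 in WT against KO. No 2 libraries were identical (highest r 0.985 in 10 mM and 0.990 in 1 mM glucose). Transcript lengths and exon overlaps came from GENCODE M21. Alternatives were other scalings, a trend-free prior, a filter, 1 added on the linear scale, the compared groups alone, a replicate block and left-out libraries, and, chosen after seeing the data, removal of each library's trend with transcript length.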

Additional observations from a re-analysis of the deposited data

Results flagged for a closer look

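Among 280 groups of 4 libraries, 1 per gene, construct and medium, 16 held a library far from the other 3; chance gives about 1 in 20. In 10 mM glucose these were Kat7 in KO replicate 1 (7.10, the others 6.72 to 6.75), Hdac2 and Hdac3 in WT replicate 4 (7.56, the others 7.43 to 7.45, and 6.70, the others 6.56 to 6.58), Hdac7 in WT replicate 2 (7.11), Brd1 in WT replicate 3 (6.68), Brd3 in WT replicate 3 (6.49, the others 6.22 to 6.27) and Kat2a in Nuc replicate 4 (6.28). In 1 mM glucose WT replicate 2 was low for Crebbp (5.82, the others 6.66 to 6.68), Hdac4 (5.53) and Brd3 (5.85, the others 6.52 to 6.62). Also in 1 mM glucose, Kat7 was low in KO replicate 1 (6.78), Kat5 high in Cyto replicate 4 (5.68, the others 5.17 to 5.25), Hdac4 high in Cyto replicate 2 (7.01), Hdac5 high in Cyto replicate 1 (6.53), Hdac10 low in Cyto replicate 2 (3.9995) and Hdac9 high in Nuc replicate 1 (1.45).

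Differences between media in a log2 fold change (1 mM minus 10 mM glucose, limma adjusted p under 0.05) were found for 33 pairs of gene and comparison. WT against KO gave Sirt1 (-0.57), Brd8 (-0.30) and Brd9 (-0.39). Cyto against KO gave Kat2a (0.30), Kat7 (0.39), Ncoa1 (0.65), Hdac8 (0.62), Hdac4 (0.58), Hdac5 (-0.67), Hdac7 (-0.61), Hdac10 (-0.63), Hdac11 (-0.99), Sirt3 (0.74), Sirt7 (-0.88), Brd9 (-0.45) and Brpf3 (0.63). Nuc against KO gave Kat2a (0.40), Kat7 (0.33), Kat14 (0.40), Hdac5 (-0.93), Hdac6 (-0.44), Hdac7 (-0.34), Hdac10 (-0.38), Hdac11 (-1.04), Sirt2 (-0.24), Sirt3 (0.53), Brd7 (-0.36), Brd8 (-0.23) and Brd9 (-0.40). Nuc against Cyto gave Hat1 (0.49), Hdac3 (-0.28), Sirt7 (0.63) and Brd8 (-0.23). Of the 33, 17 stayed called under every alternative run.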

How the results depend on the processing

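No called difference of the 40 genes changed sign under any alternative run. Within a medium 119 of 170 calls were kept under every alternative, and no scaling moved the median of all genes by more than 0.05. With the replicate block 162 of 170 calls within a medium and 32 of 33 between media were kept.

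Counts of the 40 genes called moved by over 1.5 times as follows. With the length trend removed, Cyto against WT in 10 mM glucose went from 7 to 13, Nuc against WT there from 7 to 11, and the differences between media from 3 to 6 for WT against KO and from 4 to 8 for Nuc against Cyto. With the 2 groups alone, Cyto against WT in 10 mM glucose gave 13. With quantile normalization, the difference between media for WT against KO gave 5. Without all libraries numbered 4, Nuc against KO in 1 mM glucose fell from 20 to 13, Nuc against Cyto there from 13 to 8, the difference between media for Nuc against KO from 13 to 6, and that for Nuc against Cyto from 4 to 0 (limma, with 6 at an unadjusted p under 0.05). Leaving out 1 library gave 3 to 6 for the difference between media of WT against KO (6 without WT replicate 2 in 1 mM glucose). The range was 7 to 12 for Nuc against KO (7 without Nuc replicate 3 and 8 without Nuc replicate 1 in 1 mM glucose, 8 without KO replicate 1 in 10 mM glucose). It was 2 to 4 for Nuc against Cyto (2 without Cyto replicate 4 in 10 mM glucose, or Cyto replicate 3 or 4 or Nuc replicate 2 or 3 in 1 mM glucose). Within a medium, leaving out 1 library moved Cyto against KO in 10 mM glucose between 10 and 14 (10 without Cyto replicate 2). Alternatives with fewer libraries have less to test with; the causes of the other moves were not tested.

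Depth is unknown, so how far it limits low genes such as Hdac9 cannot be stated. Cells were 1 knockout line, separate cultures are not stated, and mRNA says nothing of protein or acetylation.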
